A study of Rattus norvegicus with 6 samples.

Results

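Carbonic anhydrases were compared between the colons of S.LEW congenic and S rats as a family of 10 genes (Car1, Car2, Car3, Car4, Car5b, Car7, Car8, Car9, Car12 and Car13). A probe belonged to the family when its accession in the scanner files matched one of these genes by current symbol in RefSeq. The 10 genes were read by 11 probes, out of 15168 genes with a matched probe on the array, and 9 of them were among the 12418 genes of the authors' normalized table. Car3 was the exception, and its values come from the scanner files. Colon RNA had been taken from 3 male Dahl salt-sensitive (S, SS/Jr) rats and 3 male rats of the S.LEW(10)x12x2x3x5 congenic strain, which carries a short Lewis (LEW) segment of chromosome 10 with the gene Rffl on the S background. All 6 rats received azoxymethane (AOM), a colon carcinogen, given as 2 weekly doses of 15 mg per kg that began at the age of 6 weeks, ate a diet with 0.3% NaCl and were killed at 30 weeks. Rats without AOM were not analysed here, so each difference is one between 2 strains that both carry AOM exposure, and although the label of each sample names AOM-induced colon tumors beside colon, how much tumor the RNA held is not given in the sources used here. Each rat had 1 single-color Agilent array.

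Carbonic anhydrases are zinc enzymes that turn carbon dioxide and water into bicarbonate and a proton, and back. In the colon they supply surface epithelial cells with the ions that are exchanged for luminal chloride and sodium, and they help to set the pH at the mucosal surface. The family differs mainly in where the enzyme sits. Car1, Car2, Car3, Car7 and Car13 are cytosolic, Car4 is anchored to the outer face of the plasma membrane, Car9 and Car12 span the membrane with the catalytic part outside, Car5b is mitochondrial, and Car8 lacks the zinc-binding site and has no carbonic anhydrase activity.

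Of the 10 listed carbonic anhydrase genes, the 9 in the normalized table were all higher in the congenic rats on average (52.9% of all genes were), and 7 of them rose by the rule used for a call, a limma p under 0.05 without adjustment together with a change of at least 2-fold. Of all 12418 genes, 3.79% were called higher and 2.62% lower by the same rule, and none of the 9 was called lower. These genes were chosen with earlier results of these data known, and the table also holds 5 other carbonic anhydrases, described last, of which none was called. The called genes were Car1, Car2, Car13, Car7, Car9, Car12 and Car8, while Car4 and Car5b stayed under 2-fold. In each of the 9 genes every congenic rat lay above every S rat, an arrangement that 14.2% of all genes showed, with 5.01% in the opposite one. The median log2 fold change was 1.48 over the 9 genes and 0.03 over all genes. In these bulk samples fewer cells of a type and less RNA per cell cannot be told apart. After adjustment no probe of the 23997 tested passed 0.05 with limma (smallest adjusted p = 0.0843) or with the methods' t-test, although 3115 probes, 13%, lay under 0.05 without adjustment in limma. The differences below are therefore calls without adjustment, with 3 rats per strain. Their p values set each strain difference against the spread between these rats as limma estimates it. Within slide 1 limma gave an adjusted p of 0.917 for every member, the highest under any alternative.

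The 3 S rats were not alike. Array S2 correlated with the congenic arrays at 0.967 to 0.976 across probes, but with S1 at 0.9 and with S3 at 0.937. The arrays of C1 and all S rats shared 1 scan identifier, and those of C2 and C3 shared another. Each identifier was taken here as a slide, slide 1 and slide 2, since the sample labels name no slide. A comparison within slide 1 thus sets C1 alone against the S rats and takes its spread from the S rats only. Median scanner signals ran from 213.8 to 594.1, and the share of spots flagged as well above background ran from 73.8% to 87.6%. With S2 left out, 8 of the 9 genes were called higher, against 11.3% of all genes, and 7 of the 9 passed an adjusted p of 0.05 in limma, against 14.1% of all genes higher in the congenic rats at that limit. With each rat left out in turn, 4 genes (Car1, Car2, Car8 and Car12) were called every time. The same was true of 44.6% of the 471 genes called higher with all rats.

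**Figure D1:**
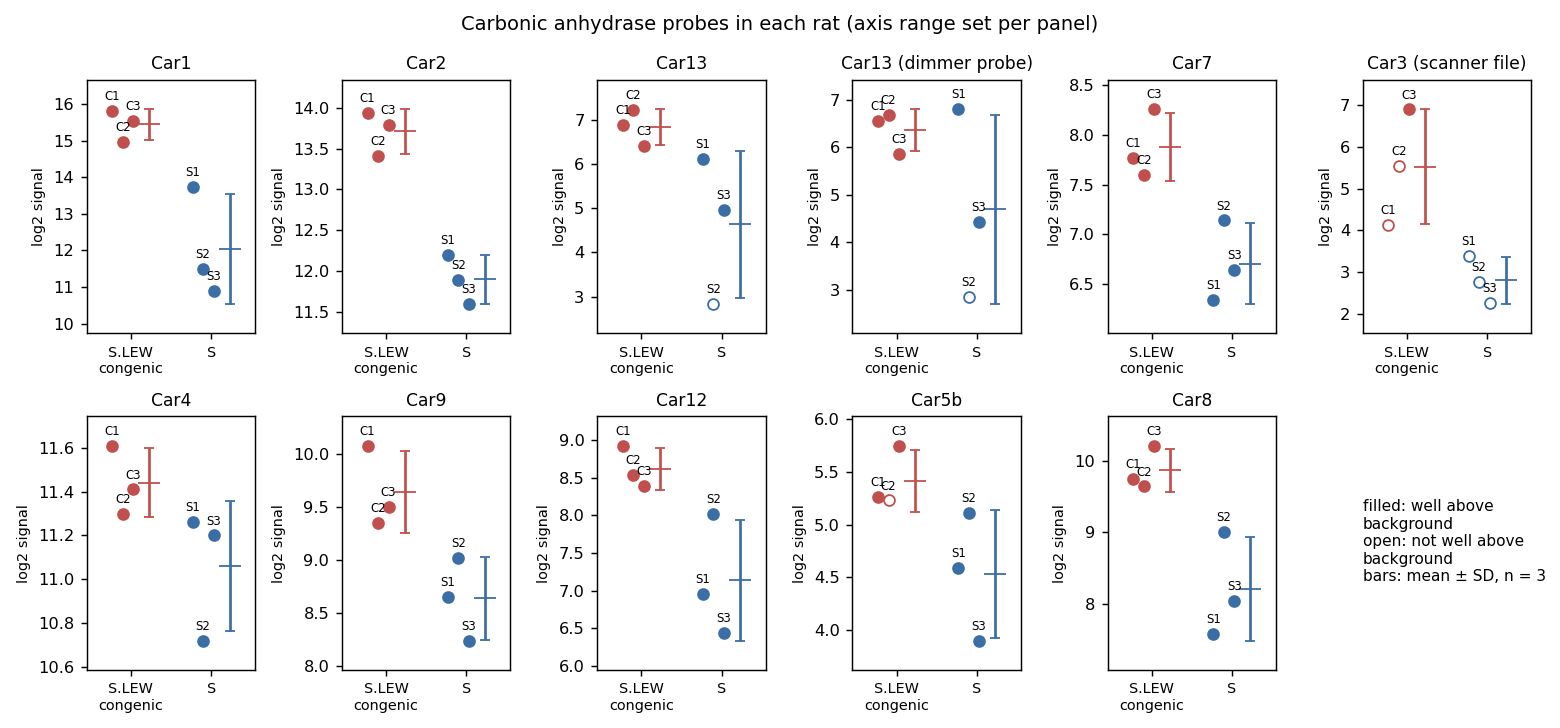
Normalized log2 signal of each carbonic anhydrase probe in each rat, by strain, with the mean ± SD (n = 3) beside the points. In every panel but that of the dimmer Car13 probe the 3 congenic rats (C1, C2, C3) sit above the 3 S rats, and Car3, from the scanner files, is open (not well above background) in all rats but C3.

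Car1 had the largest difference of the family. This cytosolic enzyme is abundant in colonic surface epithelium and in red blood cells. Congenic rats C1, C2 and C3 read 15.81, 14.98 and 15.55 on the log2 scale, against 13.73, 11.49 and 10.89 for S rats S1, S2 and S3. The congenic rats were close together and the S rats were spread widely, with S1 well above S2 and S3 but still 1.25 below the lowest congenic rat. The strain means were 15.44 ± 0.42 (SD, n = 3) and 12.04 ± 1.5 (SD, n = 3), which gave a log2 difference of 3.41 (SE 0.73, limma adjusted p = 0.232), or 10.6-fold. By this value Car1 ranked 7 among all 12418 genes. Without S1 the log2 fold change was 4.25. Within slide 1 it was 3.77.

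Car2, the cytosolic enzyme with high activity that is found in most epithelia, had an SD of 0.30 or less in both strains. On the log2 scale, C1 to C3 measured 13.94, 13.41 and 13.79, while S1 to S3 measured 12.20, 11.89 and 11.60. The strains were separated by 1.21, beside an SD of 0.27 in the congenic rats and of 0.30 in the S rats. Congenic minus S, the log2 fold change was 1.82 (SE 0.24, limma adjusted p = 0.194), or 3.52-fold, and lay between 1.67 and 1.97 with any rat left out and at 2.04 within slide 1. The array carries the Car2 probe at 10 spots, which gives the measurement error within an array. The SD of the log2 scanner signal over the 10 spots was 0.02 to 0.03 on 5 arrays and 0.08 on S1. Spots of C1 and C3 overlapped, between 13.58 and 13.75, and those of S2 and S3 lay lower, between 11.34 and 12.14. Before normalization the spots of S1, between 12.87 and 13.13, overlapped those of C2, between 12.95 and 13.02. S1 was also the brightest array over all spots and C2 the dimmest, and after normalization C2 stood above S1.

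**Figure D2:**
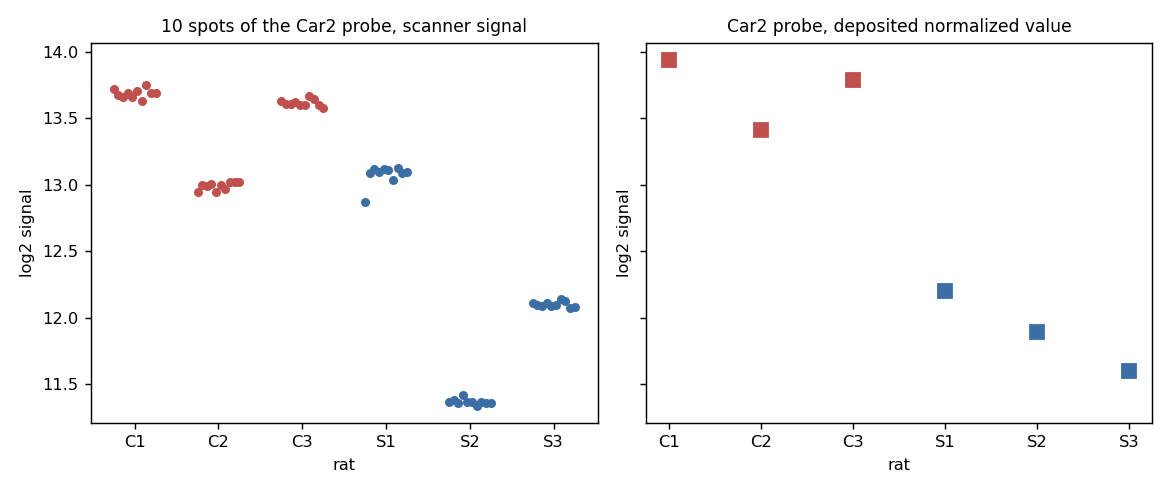
Log2 scanner signal of the 10 spots of the Car2 probe on each array (left) and the normalized log2 value of the probe in the authors' table (right). Spots of an array lie close together, with SDs from 0.02 to 0.08, and S1 overlaps C2 before normalization but lies at 12.20 against 13.41 after it.

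Car13, a further cytosolic enzyme, was read by 2 probes that gave different pictures. The brighter probe read 6.87, 7.22 and 6.41 in C1 to C3 and 6.11, 2.84 and 4.96 in S1 to S3 (log2), with S2 not well above background. Every congenic rat was above every S rat, by 0.30 between the nearest rats. Its log2 fold change of 2.20 (SE 0.79, limma adjusted p = 0.354) was 2.93 without S1 and 1.30 without S2, and the call was lost without S3 (2.36), C1 (2.18) or C2 (2.0) and with the methods' t-test. With the slide as a block it was 2.23 and with normexp background correction 0.95, neither of them a call. The dimmer probe read 6.81 in S1, above all congenic rats, whose log2 signals lay between 5.87 and 6.69, and 2.85 in S2 and 4.43 in S3. Its log2 fold change was 1.67 (SE 0.94, limma adjusted p = 0.459), with 2.73 without S1 and 0.75 without S2. With the mean of both probes the gene was not called (log2 fold change 1.93). Both probes carry the same accession, and RefSeq also lists a pseudogene, Car13-ps2, whose share in these signals was not tested.

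Car7 is a cytosolic enzyme best known from neurons and colon. The log2 signals of C1, C2 and C3 were 7.77, 7.60 and 8.26, whereas those of S1, S2 and S3 were 6.34, 7.14 and 6.64. S2 was the nearest to the congenic rats, 0.46 below the lowest of them. The log2 fold change was 1.17 (SE 0.29, limma adjusted p = 0.268), or 2.25-fold. It fell just under 2-fold without S1 (0.99) and without C3 (0.98), and with normexp correction it was 0.77, none of them a call. Within slide 1 it was 1.07, and with the slide as a block that value was not a call.

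Car3, the cytosolic enzyme of muscle and fat, was mostly below detection. Its probe was well above background in C3 alone. After quantile normalization of the scanner signals, log2 values of 4.14, 5.55 and 6.90 were found in C1 to C3 and of 3.38, 2.77 and 2.26 in S1 to S3. With 5 of the 6 arrays not well above background, these values carry no measured fold and none is given. The summed signal over 8 adipocyte markers was 2448, 3454 and 4783 in C1 to C3 and 1405, 2875 and 2126 in S1 to S3, so the strains overlapped. Of the 8, only 2 rose, Adipoq (log2 fold change 1.91, SE 0.57) and Cfd (1.57, SE 0.41), and C3 was highest for both, as for Car3. Without C3 their log2 fold changes were 1.30 and 1.17. For the skeletal muscle list, 3 of 10 genes fell (Mybpc1, Myh1 and Tnnt3). Of these, Mybpc1 and Myh1 were well above background in all S rats and in no congenic rat. Their probes thus passed the detection filter through the S rats alone. The summed signal was 20781 to 25790 in the congenic rats and 11031 to 43084 in the S rats, with S2 highest and Myh4 not well above background on any array. The part of fat and muscle in the Car3 signal was not tested.

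Car2, Car3, Car1 and Car13 lie next to each other on chromosome 2, in this order and with no other protein-coding gene between them in the RefSeq annotation of GRCr8, whereas the other members lie on chromosomes 5, 8, 10, 19 and X. Of this group Car1 and Car2 were called under every alternative and Car13 was not.

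Among the enzymes that act outside the cell, Car12 and Car9 rose and Car4 did not pass the test. Car12 is the membrane enzyme of the basolateral side of many epithelia. Congenic rats C1, C2 and C3 read 8.93, 8.54 and 8.39 on the log2 scale, against 6.96, 8.02 and 6.44 for S rats S1, S2 and S3. S2 lay 0.37 below the lowest congenic rat, and S1 and S3 far lower. Congenic minus S, the log2 fold change was 1.48 (SE 0.42, limma adjusted p = 0.295), or 2.80-fold, and 1.92 without S2. Within slide 1 it was 1.79.

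Car9 is the membrane enzyme known as a target of the hypoxia response and present in normal gut epithelium. On the log2 scale, C1 to C3 measured 10.08, 9.35 and 9.5, while S1 to S3 measured 8.65, 9.02 and 8.24. The groups were 0.33 apart at their nearest. The log2 fold change of 1.01 (SE 0.29, limma adjusted p = 0.308), or 2.01-fold, stood just at the limit of a call, and it was 0.81 without S3 and 0.79 without C1, and 0.88 with normexp correction, none of them a call, and 1.45 within slide 1. Of 18 tested genes of the hypoxia response, 1 rose and none fell by the same rule, and their median log2 fold change was 0.16. The gene that rose was Pfkfb4, a kinase that regulates glycolysis (log2 fold change 1.26, SE 0.28).

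Car4 is the enzyme anchored to the apical surface of colonic epithelium. The log2 signals of C1, C2 and C3 were 11.61, 11.30 and 11.41, whereas those of S1, S2 and S3 were 11.26, 10.72 and 11.20. The strains did not overlap, but the gap was only 0.05. Congenic minus S, the log2 fold change was 0.38 (SE 0.22, limma adjusted p = 0.46) with a 95% interval from -0.14 to 0.90, which does not reach 2-fold, and within slide 1 it was 0.55. Car4 lies on chromosome 10, as does the congenic segment, with 47 protein-coding genes between it and Rffl in RefSeq order.

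The sequence upstream of these 3 genes and of Car7 is shown because 3 of the 4 genes were called higher and 1, Car4, was not. Each is the 250 bases before the RefSeq start in GRCr8, 5′ to 3′ on the strand of the gene, and capitals mark matches on either strand to ACGTG (the core of the hypoxia response element), GGGCGG (the GC box), TATAAA (the TATA box) or TTTATG (a motif of the CDX factors of gut epithelium).
Car4, chr10:70325108-70325357, plus strand: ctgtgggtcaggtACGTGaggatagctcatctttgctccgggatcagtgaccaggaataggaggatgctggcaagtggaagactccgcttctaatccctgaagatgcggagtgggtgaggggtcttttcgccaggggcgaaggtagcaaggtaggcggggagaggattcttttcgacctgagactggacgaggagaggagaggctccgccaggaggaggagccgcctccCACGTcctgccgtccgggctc
Car7, chr19:444915-445164, minus strand: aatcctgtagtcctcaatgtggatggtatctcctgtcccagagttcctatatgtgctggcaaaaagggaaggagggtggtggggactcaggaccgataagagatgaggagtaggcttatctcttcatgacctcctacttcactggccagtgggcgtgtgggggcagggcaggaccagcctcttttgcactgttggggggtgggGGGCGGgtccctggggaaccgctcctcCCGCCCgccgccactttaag
Car9, chr5:62558774-62559023, plus strand: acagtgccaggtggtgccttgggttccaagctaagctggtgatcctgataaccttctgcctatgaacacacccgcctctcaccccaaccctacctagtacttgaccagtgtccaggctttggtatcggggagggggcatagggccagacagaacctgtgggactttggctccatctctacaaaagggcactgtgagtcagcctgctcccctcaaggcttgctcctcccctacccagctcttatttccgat
Car12, chr8:76169565-76169814, plus strand: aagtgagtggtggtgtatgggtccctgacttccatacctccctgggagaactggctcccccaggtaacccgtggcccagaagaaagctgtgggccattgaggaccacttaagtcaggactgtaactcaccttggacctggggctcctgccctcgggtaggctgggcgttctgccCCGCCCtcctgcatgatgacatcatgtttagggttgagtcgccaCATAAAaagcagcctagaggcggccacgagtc
Car4 held ACGTG at 2 places, Car7 held GGGCGG at 2 places, Car12 held 1 GGGCGG and 1 TTTATG, and Car9 held none of these letters in this window. Among 33469 RefSeq promoters, 16.6% held ACGTG, 30.5% GGGCGG, 12.9% TATAAA and 11.4% TTTATG in the same 250 bases. No motif was shared by the called genes Car7, Car9 and Car12. The window of Car5b, which was not called either, held no match to any of these motifs and is not shown.

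Car5b, the mitochondrial enzyme that supplies bicarbonate to carboxylases, was dim. Congenic rats C1, C2 and C3 read 5.26, 5.23 and 5.75 on the log2 scale, against 4.59, 5.11 and 3.90 for S rats S1, S2 and S3, and C2 was not well above background. S2 lay only 0.12 below the lowest congenic rat. The log2 fold change was 0.88 (SE 0.34, limma adjusted p = 0.374), or 1.84-fold, and it passed 2-fold only without S2, at 1.17. Within slide 1 it was 0.72. Of 7 tested enzymes that use bicarbonate, 2 rose and none fell, with a median log2 fold change of 0.58. They were Pcca, a subunit of the mitochondrial propionyl-CoA carboxylase (1.09, SE 0.25, and 0.91 without S1), and Acacb, the acetyl-CoA carboxylase of the outer mitochondrial membrane (1.02, SE 0.27, and 0.85 without C3, 0.87 without S3 and 0.97 without S1, none of them a call).

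Car8, which has lost carbonic anhydrase activity and is known to bind the inositol trisphosphate receptor, rose nearly as much as Car2. On the log2 scale, C1 to C3 measured 9.74, 9.64 and 10.21, while S1 to S3 measured 7.58, 9.0 and 8.04. Again S2 was the S rat nearest to the congenic rats, by 0.63. Congenic minus S, the log2 fold change was 1.66 (SE 0.39, limma adjusted p = 0.267), or 3.15-fold, between 1.34 and 2.05 with any rat left out. Within slide 1 it was 1.53.

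**Figure D3:**
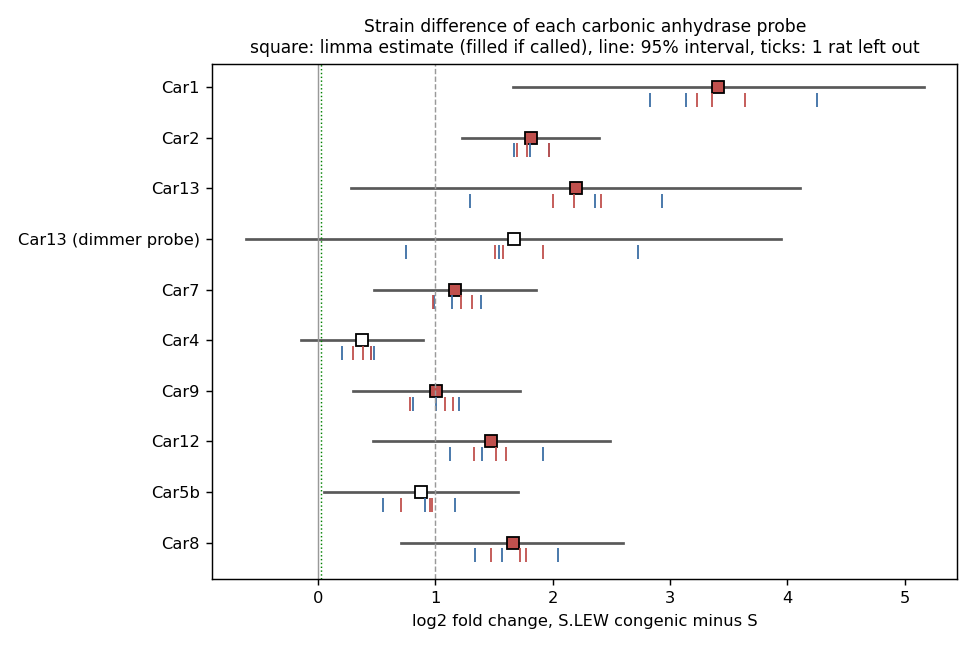
Log2 fold change of each carbonic anhydrase probe in the normalized table, congenic minus S, with its 95% interval from limma. Filled squares were called, ticks give the value with 1 S rat (blue) or 1 congenic rat (red) left out, the dashed line is 2-fold and the dotted line the median of all genes. All estimates lie above 0, from 0.38 for Car4 to 3.41 for Car1.

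The S rats varied more than the congenic rats. In 8 of the 9 genes the SD was larger in the S rats, where it ran from 0.29 to 1.66, than in the congenic rats, where it ran from 0.15 to 0.42. The same held for 72.1% of all genes. The members fell into different orders of the S rats. For Car7, Car8, Car9, Car12 and Car5b, S2 was the highest S rat, as in 70.3% of all genes called higher. For Car1, Car2, Car13 and Car4 the highest was S1, which held for 24.8% of the genes called higher, and S3 was the highest for no member against 4.88% of those genes. The lowest S rat was S3 for 5 members (47.1% of the genes called higher), S1 for Car7 and Car8 (42.9%) and S2 for Car13 and Car4 (9.98%). The S2 value of Car13 was not well above background. In Car1, S2 lay 3.95 and S3 4.56 below the congenic mean, against 1.72 for S1.

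**Figure D4:**
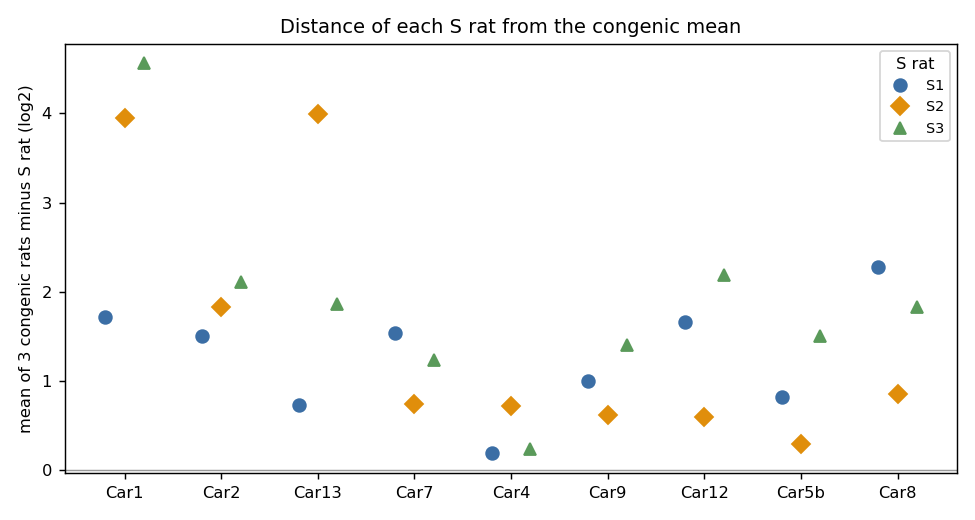
Mean log2 signal of the 3 congenic rats minus that of each S rat, for each carbonic anhydrase gene. S2 (diamonds) is the nearest to the congenic mean for Car7, Car9, Car12, Car5b and Car8, and S1 (circles) for Car1, Car2, Car13 and Car4.

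Markers of the colon epithelium were also higher in the congenic rats on average. All 9 tested epithelial genes had a log2 fold change above 0, from 0.52 to 1.01, with a median of 0.76, and 1 of them, Vil1 (villin, of the brush border, 1.01, SE 0.28), rose by the rule, though its change was under 2-fold without S1 (0.89), S3 (0.95), C1 (0.87) or C2 (0.94). Their summed signal was 108696 to 161788 in the congenic rats and 68363 to 96712 in the S rats, without overlap, and S2 was the highest S rat. Each of the 9 was well above background on at least 1 array. The log2 fold change of 6 carbonic anhydrases was above that of Vil1 and that of 8 above the median of the epithelial list. For the list of surface colonocytes, 3 were above its highest gene and 8 above its median. For the goblet cell list these counts were 5 and 8. Among 8 tested markers of surface colonocytes, 1 rose, Fabp2 (a fatty acid carrier, 1.69, SE 0.48), and 1 fell, Guca2b (uroguanylin, -1.09, SE 0.33, with -0.99 without S1 and -0.84 without S3). The water channel Aqp8 was also lower in all congenic rats, at 7.24 to 8.0 against 8.52 to 8.88 in the S rats (log2 difference -1.0, SE 0.26), just short of a call. The keratin Krt20 was just short of a call in the other direction (log2 difference 0.99, SE 0.21). It read 13.21 to 13.8 in the congenic rats and 12.42 to 12.59 in the S rats. All congenic rats were above all S rats in 2 of the 8 genes and below them in 2. The summed signal of the surface colonocyte list was 52590 to 66494 in the congenic rats against 46381, 30335 and 29846 in S1 to S3, so that S1 was the highest S rat, as for Car1, Car2, Car13 and Car4. By the mean of log2 values in place of the sum, S1 (10.78) lay above C2 (10.73) and C3 (10.59) on this list. The part of the epithelial cells in the carbonic anhydrase differences was not tested.

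The other marker lists differed in size and direction. Goblet cell markers summed to 16452 to 19535 in the congenic rats and 8286 to 12989 in the S rats, with 1 of 6 genes called higher (Spdef, the goblet cell transcription factor, 1.25, SE 0.38, not called without S3, at 0.87, or without C3, at 1.12). By the mean of log2 values S2 (10.52) lay above C3 (10.37) on the goblet cell list. No gene of crypt and proliferating epithelium was called among 8, and their summed signal was 7761 to 9811 in the congenic rats and 8547 to 10529 in the S rats. Red blood cells also hold Car1 and Car2. Of 5 tested erythroid genes none was called, and the summed signal was 6550 to 13148 in the congenic rats and 5458 to 7710 in the S rats, with Rhag below background on all arrays. Of 6 lymphoid genes, 5 fell, and their summed signal was 1101 to 1316 in the congenic rats, 1175 in S2, but 68701 in S1 and 51829 in S3, so that S2 stood with the congenic rats. Ccl19, a chemokine of lymphoid tissue, read 14.08 in S1, 13.78 in S3 and 5.28 in S2 (log2) and was well above background in 1 of 3 congenic rats, and all 5 calls were lost when any rat other than S2 was left out. Smooth muscle genes summed to 585736 to 658578 in the congenic rats and to 685451 in S2, but to 189900 in S1 and 389356 in S3, and 1 of 8, Smtn (smoothelin, 1.12, SE 0.46), was called higher, but not when any rat other than S2 was left out. No gene among 9 of enteric neurons and glia was called, with sums of 11511 to 20317 in the congenic rats and 5516 to 21739 in the S rats. Of 5 genes of posterior gut position 1 rose, Hoxa11 (1.61, SE 0.23), and the summed signal was 11849 to 12922 in the congenic rats and 4977 to 19100 in the S rats. The part of these cell types in the carbonic anhydrase values was not tested.

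**Figure D5:**
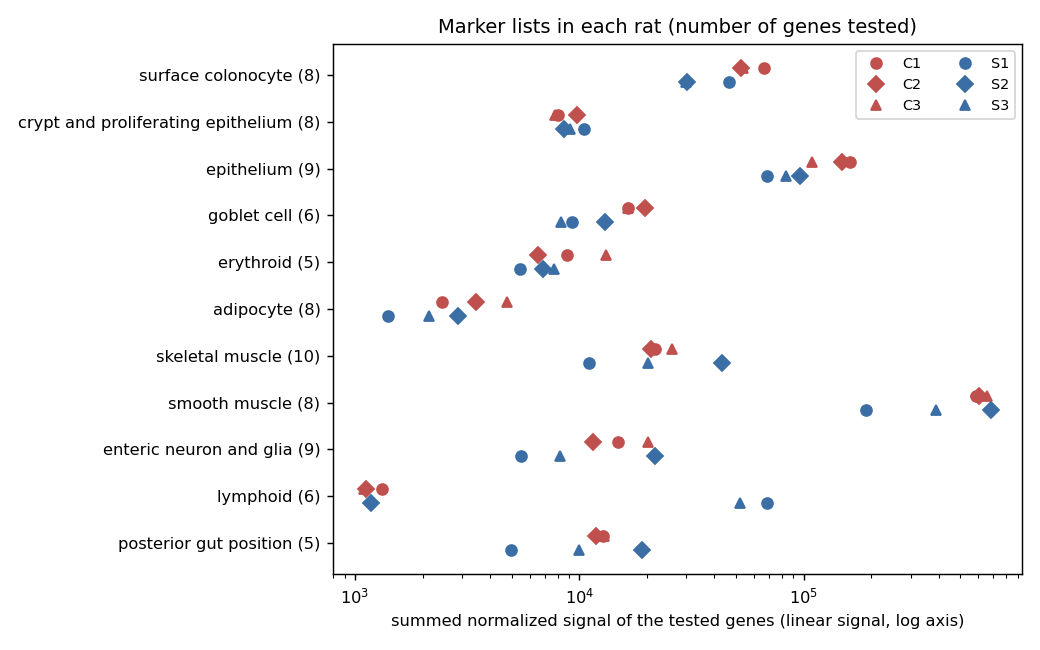
Summed normalized signal (linear, log axis) of the tested genes of each marker list in each rat, with congenic rats in red and S rats in blue. The epithelium, surface colonocyte and goblet cell lists separate the strains by this sum, congenic rats above S rats (of these 3, only the epithelium list does so by mean log2), and the lymphoid list is high in S1 (68701) and S3 (51829) alone.

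The carbonic anhydrases outside these 10 genes were tested by the same rule. Of 5 with a tested probe (Car5a, Car6, Car11, Car14 and Car15) none was called in either direction, none separated the strains, and their median log2 fold change was -0.03. Car11, an inactive member expressed mainly in brain, came nearest, with log2 signals of 11.52, 11.36 and 11.51 in C1 to C3 and of 9.99, 11.42 and 10.22 in S1 to S3. S2 lay among the congenic rats. Its log2 fold change was 0.92 (SE 0.39, limma adjusted p = 0.386) and without S2 it was 1.36 and called. Car6, the secreted enzyme of saliva, differed by -0.03 on the log2 scale (SE 0.59) at its brighter probe, with S2 highest at 13.31 and S1 lowest at 10.88. At its dimmer probe the order was reversed, with S1 highest at 7.43 and S2 lowest at 6.11. The log2 fold change of that probe was -0.53 (SE 0.37) and -0.95 without S2, neither of them a call.

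Transporters that carry bicarbonate and protons next to these enzymes were called in both directions. Of 21 tested, 3 rose and 1 fell, the median log2 fold change was 0.46, and all congenic rats were above all S rats in 7. Slc4a4, the sodium bicarbonate cotransporter of the basolateral membrane, read 11.07, 10.62 and 10.28 in C1 to C3 and 8.93, 9.0 and 8.70 in S1 to S3 (log2). Its log2 fold change was 1.78 (SE 0.25, limma adjusted p = 0.194). Slc26a7, an anion exchanger, was well above background in all congenic rats and in no S rat, with a strain ratio of at least 3.88-fold. Its probe thus passed the detection filter through the congenic rats alone. Slc26a3, the apical chloride bicarbonate exchanger of the colon, had a log2 fold change of 1.07 (SE 0.33, limma adjusted p = 0.32), with 0.83 without C1, 0.97 without C2 and 0.98 without S2, which were not calls. Slc4a8, a sodium-driven exchanger, was called lower, but it was well above background in 1 of 3 congenic rats only, with 5.34, 2.75 and 4.10 in C1 to C3 and 5.75, 5.52 and 5.54 in S1 to S3 (log2), so that no fold is given. Of the comparisons with 1 rat left out, only that without C1 kept this call.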

How the data were processed

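RNA of colon from 3 S.LEW congenic and 3 S rats was labeled with Cy3 and hybridized to Agilent rat arrays. The authors read the images with Feature Extraction 11.0.1.1, and the deposited scanner files give an intensity per spot, corrected for background within the array. Quantile normalization by the authors followed, in GeneSpring, and probes found in fewer than 3 of the 6 samples were dropped. The deposited log2 table holds 23997 probes, with column medians of 8.55 to 8.57, and correlated with the log2 scanner signal at 0.9986 or more on each array, so that it is on a log2 scale and not centered per gene. These log2 values were used throughout, except for Car3. Detection is the scanner software's flag for a signal well above background, taken over the spots of a probe. No spot was saturated.

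Strains were compared in limma 3.58.1 (R 4.3.3) over all probes, unpaired as in the methods, and p values were adjusted by the Benjamini-Hochberg procedure. Standard errors and adjusted p values are from that fit. A gene was called at p under 0.05 and 2-fold, by its brightest probe. With 3 rats against 3 an exact two-sided permutation test cannot go below 0.10, which all 9 tested members reached. Accessions were matched to RefSeq (GRCr8) for 18005 of 30367 probes. The RefSeq promoter table used here matched 5 members. The members, gene lists and motifs were chosen with earlier results of these data known. The named genes were the members and up to 3 called genes of each list, those with the largest change. Car6, Car11 and Slc26a3 were added after their values were seen. Also named outside this rule were Aqp8 and Krt20, both just short of a call. So were Myh4 and Rhag, which were not well above background on any array. The fit was tested on simulated data with known shifts, drawn with the spread of the congenic rats. That test does not cover the wider spread of the S rats. The authors' lists of changed genes and their p values were not used. Figures were drawn with matplotlib 3.10.9.

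The alternatives were other normalizations of the scanner signals (quantile, the 75th percentile, normexp on the median signal with an offset of 50), other filters, the methods' t-test, the replicate number or slide as a block, the mean of the probes of a gene, and leaving out each rat in turn. The arrays give no read depth, and their number limits the precision.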

Additional observations from a re-analysis of the deposited data

How the results depend on the processing

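Over 10 carbonic anhydrase probes and 15 alternatives, 147 values were computed and none was below 0. For the brightest probe of each of the 9 genes every congenic rat lay above every S rat. Leaving out 1 rat or comparing C1 alone with the S rats thus could not bring those values below 0. Some alternatives also share an estimate, as for Car1 with 3.41 in the main comparison, the replicate block and the methods' t-test. In 128 of the 147 values the probe was on the same side of the limit for a call as in the main comparison. In 17 a call was lost and in 2 one was gained. The 128 include every value of Car4, which was never called. Car1 and Car2 were called under all 15. The adjusted p of each member from limma went up to 0.917, within slide 1, and for Car8 down to 0.00954, without S2.

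The number of carbonic anhydrases called, 7, was 4 with normexp background correction (Car1, Car2, Car8 and Car12) and 3 within slide 1 (Car1, Car2 and Car9), where C1 alone stands for the congenic strain and the spread is that of the S rats. With the methods' t-test it was 6, without Car13, and with the slide as a block 5, without Car7 and Car13. It ranged from 5 to 8 with 1 rat left out. The strains separated in 9 genes, and in 8 with 75th percentile scaling, where Car5b overlapped, and with normexp, where Car4 did. Over all probes, 776 were called higher and 562 lower. The counts were 360 higher and 379 lower with normexp correction, 679 higher and 342 lower among probes well above background on all 6 arrays, 551 higher and 227 lower with the slide as a block, 443 higher and 187 lower within slide 1, and 515 higher and 178 lower with the methods' t-test, which after Benjamini-Hochberg adjustment called none. They ranged from 477 to 2397 higher and from 192 to 1725 lower with 1 rat left out, the largest counts being without S2 and the smallest without S3. At an adjusted p under 0.05, limma called 1 probe with scaling to the 75th percentile, and from 0 to 5553 with 1 rat left out, the largest without S2. Scaling to the 75th percentile gave 692 higher and 759 lower. The cause of these changes was not tested.

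With the replicate number as a block 794 probes were higher and 744 lower and the same 7 carbonic anhydrases were called. Deviations of same-numbered rats from their strain means correlated at -0.02, -0.13 and -0.06. Because S2 stood apart from S1 and S3, these values cannot exclude a pairing. The rats were housed as 1 S and 1 congenic rat per cage, and which of these rats shared a cage is not given in the sources used here. Signal over background limits Car3, Car5b and Car13, each below detection on at least 1 array.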
